A study of Mus musculus with 10 samples.

Results

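The 10 genes described here encode surface proteins through which T cells receive or give inhibitory and costimulatory signals, and they were followed across the splenic T cells of BXD2 mice. They were taken by name from the gene rows of each matrix, 10 of 31053 genes: the inhibitory receptors Pdcd1 (PD-1), Lag3, Tigit, Ctla4 and Havcr2 (TIM-3), the ligand Cd200, the costimulatory receptors Icos, Tnfrsf4 (OX40) and Tnfrsf18 (GITR), and Izumo1r (folate receptor 4). BXD2 is a recombinant inbred mouse strain that spontaneously forms germinal centers and autoantibodies. Spleen cells of 3 BXD2-p19-/- mice (2 females and 1 male, replicate 3), which lack the p19 subunit of the cytokine interleukin-23, and of 2 female BXD2-WT mice were profiled with a 10x 5' kit, with 1 RNA library and 1 B cell receptor (BCR) library per mouse. The labels describe the cells as B and T cells of spleen, name no sort, age or treatment, and name no Cre or promoter for the deletion. The mouse was the replicate (n = 3 against 2).

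T cells that have met antigen carry both kinds of receptor. Costimulatory receptors such as ICOS and OX40 add to the signal of the T cell receptor, whereas PD-1, CTLA-4, LAG-3 and TIGIT restrain it, by recruiting phosphatases or by competing for shared ligands. T follicular helper (Tfh) cells, which help germinal center B cells, are known for high PD-1 and ICOS, and regulatory T (Treg) cells for CTLA-4, GITR and OX40.

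The members lie on 6 chromosomes of the mouse assembly GRCm38.p6, in the RefSeq gene table. Ctla4 (chromosome 1, 60909025 to 60915832) and Icos (chromosome 1, 60960773 to 61000322) are neighbours 44940 bases apart, with 0 protein-coding genes between them. Tnfrsf4 (chromosome 4, 156013595 to 156016613) and Tnfrsf18 (chromosome 4, 156026322 to 156028894) lie 9708 bases apart, also with 0 between. The other 6 are Pdcd1 (chromosome 1, from 94038305), Lag3 (chromosome 6, from 124904359), Tigit (chromosome 16, from 43626137), Havcr2 (chromosome 11, from 46454931), Cd200 (chromosome 16, from 45382111) and Izumo1r (chromosome 9, from 14885814).

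The 250 bases upstream of the start were read from RefSeq promoters of the same build, in which 8 of the 10 members had an entry. Ctla4 is shown because its level differed between the genotypes in effector CD4-like cells, and Pdcd1 because its level did not pass the test in any class. Both windows overlap no annotated gene. Capitals mark the core motif of NFAT, a factor switched on by T cell receptor signals, searched as GGAAA on both strands (TTTCC is the same motif on the other strand), with overlaps counted.
Ctla4, chr1:60908775-60909024, plus strand: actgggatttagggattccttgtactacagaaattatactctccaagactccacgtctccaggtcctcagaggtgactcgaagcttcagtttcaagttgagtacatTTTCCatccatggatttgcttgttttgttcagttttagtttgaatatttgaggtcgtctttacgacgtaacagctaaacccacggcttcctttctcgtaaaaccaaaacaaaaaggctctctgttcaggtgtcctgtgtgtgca
Pdcd1, chr1:94052554-94052803, minus strand, written 5′ to 3′ toward the gene: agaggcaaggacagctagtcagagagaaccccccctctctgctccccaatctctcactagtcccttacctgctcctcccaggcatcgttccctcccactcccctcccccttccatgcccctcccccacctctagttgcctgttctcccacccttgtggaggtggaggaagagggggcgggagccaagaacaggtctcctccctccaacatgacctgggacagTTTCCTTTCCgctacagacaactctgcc
The Ctla4 window held 1 match and the Pdcd1 window 2. The motif is short, and 55.6% of 32851 upstream windows of this length held it, so its presence sets neither gene apart. The motif TGANTCA, bound by AP-1, was in neither window and in 6.75% of all windows.

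The RNA libraries held 1104 to 3226 barcodes and 7712457 to 18093053 UMIs (unique molecular identifiers, which count captured RNA molecules), and any 2 libraries shared 3 to 11 barcodes. After filtering, 9200 cells remained, 944 to 2729 per mouse. The library of p19-/- 1 stood apart by mitochondrial UMIs: 891 of its 2474 barcodes had over 10% mitochondrial UMIs, against 140 to 380 in the others. Il23a, which encodes p19, had 0 UMIs in all libraries, so the genotype could not be checked from RNA. BCR contigs on T cell barcodes were unequal between the mice: 53.1%, 36.3% and 17.5% of Tfh-like cells in p19-/- 1 to 3 and 14.9% and 10.1% in WT 1 and 2 had one, as did 52.3%, 51.3% and 31.1% against 22.5% and 8.42% of Treg-like cells. The labels give no capture or sequencing date.

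T cells were clustered without the members and named from marker genes. Tfh-like cells (1650) had Cxcr5 at 193 ± 17.0 CPM (the UMIs of a gene over all UMIs of the class in a mouse, scaled as counts per 1000000, mean ± SD over 5 mice) and Treg-like cells (864) had Foxp3 at 398 ± 82.3 CPM. Effector CD4-like cells (520) had Il7r at 402 ± 177 CPM and Foxp3 at 8.22 ± 8.28 CPM. Naive-like T cells (132) had Ccr7 at 199.5 ± 71.6 CPM, and CD8 T-like cells (132), with Cd8a at 438 ± 63.1 CPM, were led by naive markers as well. The naive-like class was mixed: its summed effector CD4 markers were at 1665 to 10895 CPM, against 7270.5 to 8714 CPM in effector CD4-like cells. Its summed naive markers were at 1866 to 3122 CPM, against 786 to 941 CPM in effector CD4-like cells. At a lower T cell clustering resolution of 0.6, the naive-like class held 0 cells and the CD8 T-like class 277. The levels of these 2 classes given below therefore rest on the resolution used. Since the classes come from the same cells, their levels are described without a test.

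Pdcd1, known to be high in Tfh cells, was highest in Tfh-like cells, at 1163, 1341 and 1436 CPM for p19-/- mice 1 to 3 and 1309 and 1334 CPM for WT mice 1 and 2. Treg-like cells followed with 984 ± 174 CPM and effector CD4-like cells with 708 ± 118 CPM, and that order held in 5 of 5 mice although neighbouring ranges overlapped. Naive-like cells (31.0 ± 33.1 CPM) and CD8 T-like cells (12.8 ± 22.7 CPM) had little. The step from effector to naive-like cells left no overlap.

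Lag3, a receptor for MHC class II, took another order. Its mean was highest in effector CD4-like cells, at 588 ± 220.5 CPM, ahead of Treg-like cells in 5 of 5 mice (386 ± 148 CPM). Treg-like cells were above Tfh-like cells (249 ± 58.7 CPM) in 4 of 5 mice. No Lag3 UMI was found in CD8 T-like cells, which allows up to 3.61 CPM (3 counts over the 5 mice together), and naive-like cells held 4 UMIs.

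Tigit, which competes for the ligand CD155, was highest in Treg-like cells: 933, 1049.5 and 1312 CPM in p19-/- and 755 and 948 CPM in WT mice. Treg-like cells exceeded effector CD4-like cells (541 ± 219 CPM) in 5 of 5 mice, and the latter were not separated from Tfh-like cells (376 ± 56.5 CPM, higher in 3 of 5). Ctla4, which takes CD80 and CD86 away from CD28, had near-equal means in Treg-like (432 ± 75.4 CPM) and effector CD4-like cells (396 ± 141 CPM), with Treg-like above in 3 of 5 mice. Tfh-like cells had 281 ± 39.1 CPM and naive-like cells 72.4 ± 14.2 CPM.

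Havcr2, a marker of terminally stimulated T cells and of dendritic cells, was rare. It had 37 UMIs in effector CD4-like cells and 23 in Treg-like cells. Tfh-like cells had 0 Havcr2 UMIs, which allows up to 0.435 CPM. Among other cells, the dendritic cell-like class held Havcr2 at 74.3 ± 50.6 CPM, and the unnamed T cluster t11 (80 cells led by Gzmk, Ccl5 and Eomes) at 67.1 ± 64.8 CPM. The same cluster had Lag3 at 800.2 ± 714 CPM, with 1899 CPM in p19-/- 1 and 0 in WT 1, where it numbered 8 cells.

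Cd200, whose receptor sits mainly on myeloid cells, was higher in Tfh-like than in Treg-like cells as classes. Tfh-like cells had 309.8, 320.0 and 256 CPM in p19-/- and 276 and 230.2 CPM in WT mice. Treg-like cells had 85.1, 61.7 and 51.1 CPM in p19-/- and 41.5 and 66.0 CPM in WT mice, so the classes did not overlap. Within Tfh-like cells, however, cluster t5 had 48.2 ± 9.44 CPM, no more than the Treg-like clusters t2 (65.5 CPM) and t4 (56.5 CPM). Effector CD4-like cells (317 ± 32.5 CPM) were above Tfh-like cells in 5 of 5 mice, but with doublets kept the order turned (262 against 279.7 CPM, Tfh-like above in 3 of 5 mice).

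The costimulatory receptors of the TNF receptor family ran the other way. Tnfrsf4 had 1168, 1469.8 and 1241 CPM in the Treg-like cells of p19-/- mice and 1245 and 1317 CPM in those of WT mice, then 754 ± 131 CPM in effector CD4-like and 352 ± 50.5 CPM in Tfh-like cells, with no overlap between neighbours. Tnfrsf18 kept the same order, at 690 ± 82.4, 346 ± 40.7 and 151 ± 32.1 CPM. Its Tfh-like and naive-like levels (129 ± 62.7 CPM) were not separated, with Tfh-like cells higher in 3 of 5 mice.

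Icos, the receptor Tfh cells need for their formation, was at 601 ± 216 CPM in effector CD4-like, 472 ± 34.9 CPM in Treg-like and 410 ± 61.5 CPM in Tfh-like cells. Neighbours in that order overlapped. Izumo1r, known from Treg and anergic CD4 cells, was at 1134 ± 69.3 CPM in Treg-like, 932 ± 115 CPM in effector CD4-like and 929 ± 155 CPM in Tfh-like cells. CD8 T-like cells had 26.0 ± 11.8 CPM of Icos and 7.06 ± 9.67 CPM of Izumo1r.

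**Figure D1:**
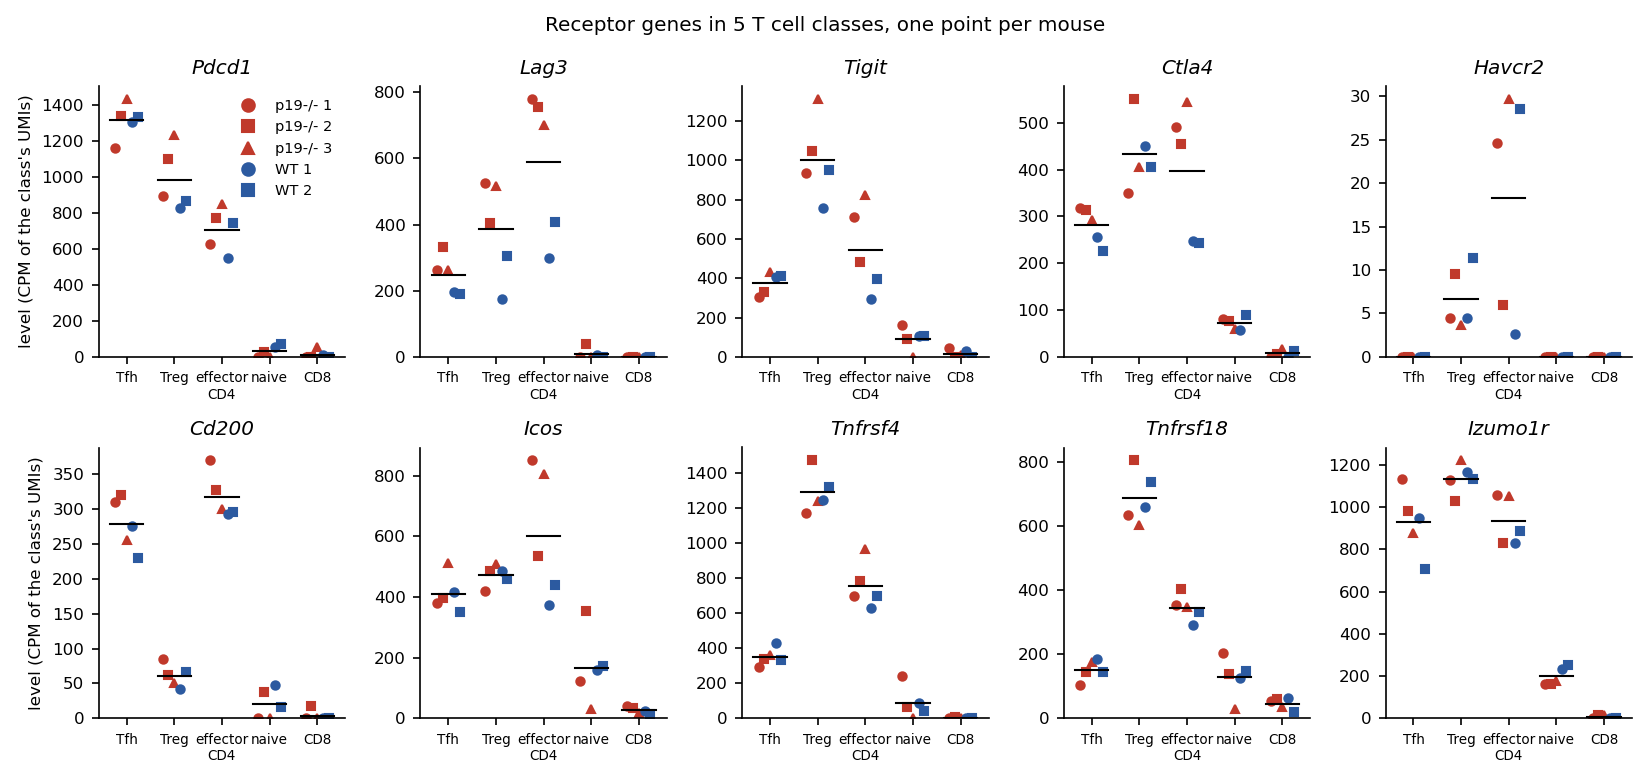
Level of each receptor gene (CPM, vertical axis from 0, a scale per panel) in 5 T cell classes. Each point is a mouse (red p19-/-, blue WT, shape the replicate number) and the black line the mean of 5 mice: Pdcd1 peaks in Tfh-like cells at 1316 CPM, Tnfrsf4 and Tnfrsf18 in Treg-like cells at 1288 and 690 CPM, and Lag3 in effector CD4-like cells at 588 CPM.

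Set against each other within each mouse, Treg-like cells held 4.63 times the Tnfrsf18, 3.68 times the Tnfrsf4 and 2.64 times the Tigit of Tfh-like cells (geometric means, higher in 5 of 5 mice). Ctla4 was 1.53 times higher (5 of 5 mice), and Lag3, Izumo1r and Icos were 1.47, 1.23 and 1.16 times higher (4 of 5 mice each). Pdcd1 stood at 0.740 and Cd200 at 0.215 of the Tfh-like level (0 of 5 mice higher). Both classes were also gated by marker UMIs instead of by cluster: Treg-like T cells by Foxp3, and Tfh-like T cells by Cxcr5 or Il21 without Foxp3. Tigit and Tnfrsf4 then came to 2.05 and 2.82 times, and Lag3 to 1.06 times (3 of 5 mice). The Lag3 mean was 342 CPM in gated Tfh-like cells, against 249 CPM by cluster, and 378 against 386 CPM in Treg-like cells.

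The classes were not uniform. Treg-like cells joined cluster t2, with more Cxcr5 (111 CPM) and less Foxp3 (261 CPM), and cluster t4, with Foxp3 at 550.1 and Cxcr5 at 39.3 CPM. Pdcd1 was higher in t2 (1260.4 against 654 CPM), whereas Tnfrsf18 (388 against 1020 CPM), Tnfrsf4 (870.3 against 1728 CPM) and Ctla4 (319.8 against 552 CPM) were higher in t4. Among the Tfh-like clusters, t5, which had the most Cxcr5 (394 CPM), had the lowest Lag3 (77.9 CPM) and Cd200 (48.2 CPM) and the highest Tigit (607 CPM). Clusters t1 and t6 had Lag3 at 344 and 372 CPM and Cd200 at 381 and 414 CPM. Cluster t1 also had the highest Pdcd1, 1465 CPM.

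For each member, the genes whose levels ran most alike over the 25 class-by-mouse sums of the 5 T cell classes were ranked by Pearson's r of log2(CPM + 1), among 5662 genes. Lag3 ran closest to Prnp (r = 0.983), Pdcd1 to Rtl8c (0.977), Cd200 to Chn2 (0.970) and Izumo1r to Cd9 (0.968). Tnfrsf4 ran closest to Smpdl3a (0.962), Icos to Cd3g (0.958), Ctla4 to Cd53 (0.955), Tigit to Ikzf2 (0.947), Tnfrsf18 to Sla (0.920) and Havcr2 to AW112010 (0.877). The next in line, given as a selection, included Gm17173 and Dusp4 for Lag3, Igf1r for Pdcd1 and Tnfsf11 for Cd200. Nfkb1 came up for both Ctla4 and Izumo1r, and Vmp1 for both Icos and Tnfrsf4. These coefficients describe sums that share mice and depth, and the low naive-like and CD8 T-like sums weigh on all of them.

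Between the genotypes, Lag3 rose in the p19-/- mice in each CD4 class tested, and effector CD4-like cells held 3 more receptors that rose with it. Sums per mouse and class were compared with edgeR's quasi-likelihood test, Benjamini-Hochberg adjusted over all genes of a class, with 0.05 as the threshold. Fold changes are log2 of p19-/- over WT. Nothing states that the mice of a group were handled separately, so the p-values measure the spread between these libraries.

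In Tfh-like cells Lag3 was 262, 333 and 263 CPM in p19-/- and 196 and 189 CPM in WT mice, without overlap. Its log2 fold change was 0.59 ± 0.12 (SE, edgeR adjusted p = 0.0259). It was 1 of 9 members tested that rose, where 0.512% of 8797 genes did. The adjusted p was 0.269 without WT 1 and 0.332 without WT 2, with fold changes of 0.61 and 0.57. It was also 0.128 when T cells with a BCR contig were left out (0.58) and 0.0571 with doublets kept (0.58). The summed Tfh markers were at 5468 to 6182 CPM in p19-/- against 4904 and 4907 CPM in WT mice (9 of 13 higher, 1 at 0), and the summed Treg markers at 776 to 904 against 981 and 1002 CPM (2 of 12 higher, 1 at 0). Their part in the result was not tested.

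The other 8 members tested in Tfh-like cells lay between −0.17 and 0.38, 5 of them above 0. Ctla4 came nearest, with 318, 313 and 291 CPM against 257 and 226 CPM, no overlap, and a log2 fold change of 0.38 ± 0.12 (edgeR adjusted p = 0.210). Pdcd1, whose level was highest in this class, was at 0.02 ± 0.10 (edgeR adjusted p = 0.976).

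In Treg-like cells Lag3 was 526, 406 and 516 CPM in p19-/- and 175 and 305 CPM in WT mice, again without overlap. The log2 fold change was 1.02 ± 0.19 (edgeR adjusted p = 0.00882), 1 of 9 members tested against 0.458% of 7422 genes higher. WT 1 is the low mouse: without it the log2 fold change was 0.69 and the adjusted p 0.429, and without p19-/- 1 they were 0.96 and 0.0885. Tigit (0.39 ± 0.15) and Pdcd1 (0.36 ± 0.14) had edgeR adjusted p of 0.432 and 0.436, and Tnfrsf18, Icos, Izumo1r, Ctla4 and Tnfrsf4 lay between −0.03 and 0.03.

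Cluster t2 made up 62.6%, 53.9% and 68.9% of Treg-like cells of p19-/- mice and 38.5% and 45.3% of those of WT mice. Within t2 alone Lag3 had a log2 fold change of 1.17 (edgeR adjusted p = 0.082) and within t4 alone 1.07 (0.0781). The Tfh-like mix differed too, with t3 at 40.6%, 39.4% and 30.9% against 16.8% and 24.0%. Lag3 was above 0 in each Tfh-like cluster, at 0.75 in t1 (edgeR adjusted p = 0.0646), 0.53 in t3, 0.56 in t5 and 0.35 in t6, and passed the test in none of them.

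Whether the fold change differed between Tfh-like and Treg-like cells was tested as an interaction, with the mouse as a block. Of 9 members, 0 passed, where 0.179% of 8916 genes did. An unadjusted p under 0.05 was found for 4 members, with the share of all genes under that limit not given. Lag3 differed by −0.45 ± 0.22 (Tfh-like minus Treg-like, edgeR adjusted p = 0.824). Tigit had the lowest p: its fold change was −0.17 in Tfh-like and 0.39 in Treg-like cells, a difference of −0.56 ± 0.12 with an edgeR adjusted p of 0.0644, and of 0.00391 when genes with low counts were kept.

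In effector CD4-like cells 4 of the receptors rose, and whether these fold changes differ from those of the other classes was not tested. Lag3 was 780.0, 756 and 699.6 CPM in p19-/- and 298 and 407 CPM in WT mice. Ctla4 was 489.9, 456 and 544 CPM against 248 and 243 CPM, Tigit 712, 482 and 821 CPM against 295 and 395 CPM, and Icos 851, 536 and 807 CPM against 374 and 438 CPM. For these 4 genes every p19-/- mouse was above both WT mice.

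The log2 fold changes were 1.03 ± 0.16 for Lag3 (edgeR adjusted p = 0.000922), 0.97 ± 0.16 for Ctla4 (0.00202), 0.92 ± 0.19 for Tigit (0.0175) and 0.81 ± 0.18 for Icos (0.0285). That made 4 of 10 members higher, where 0.545% of 5504 genes were, and the 10 had a median of 0.29 against −0.01 for all genes. The 6 others were also above 0, from 0.13 (Cd200) to 0.33 (Havcr2), with adjusted p from 0.634 to 0.939. Pdcd1 was 627, 771 and 848 CPM against 552 and 743 CPM and overlapped.

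Lag3 and Ctla4 kept their call whichever mouse was left out. Icos and Tigit lost theirs without p19-/- 1 (edgeR adjusted p = 0.309 and 0.213) or p19-/- 3 (0.130 and 0.122), and also without WT 1. They lost it with sex as a covariate too (edgeR adjusted p = 0.105 and 0.102). As p19-/- 3 is the only male, that fit in effect leaves this mouse out of the genotype term. At a finer clustering resolution of 1.6, a cluster of 285 cells led by Klf2 and Zbtb32 got no class name, and the class held 295 cells instead of 520. There Lag3 (0.62, adjusted p = 0.424), Ctla4 (0.65, 0.367), Tigit (0.54, 0.618) and Icos (0.61, 0.419) kept their sign and passed no longer. BCR contigs were on 19%, 9.46% and 0.8% of these cells among p19-/- and 5.13% and 0.962% among WT mice. B cell markers summed to 656 to 749.9 CPM against 524 to 628 CPM, although only 3 of 10 were higher in p19-/- mice (0 at 0). T cell markers summed to 9883 to 10499 CPM in p19-/- against 8809 to 9094 CPM in WT mice (8 of 10 higher). Effector CD4 markers summed to 8493 to 8714 against 7270.5 to 7344 CPM (9 of 15 higher), so all 3 sums were higher in p19-/- mice without overlap, and their part in the result was not tested.

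A finer clustering divided the effector CD4-like cells. One part (278 cells, Klf2 at 636 CPM) made up 42.0%, 48.6% and 36.8% of the class in p19-/- and 70.9% and 68.3% in WT mice. The other part (214 cells, Il10 at 162 CPM), called the Il10 part below, joins cells of 2 of the finer clusters, 1 led by Il10 and 1 led by 1810009J06Rik and S100a5, and the remaining cells of the class were in neither part. It made up 53.0%, 43.2% and 54.4% against 27.4% and 27.9%. Levels of all 4 receptors were higher in the Il10 part: 799 against 386 CPM for Lag3, 598 against 229.7 CPM for Ctla4, 762 against 349.5 CPM for Tigit and 924 against 328 CPM for Icos.

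Within the parts, which hold fewer cells, none of the 4 receptors passed, and each fold change was smaller than in the whole class. Lag3 was at 0.77 in the Klf2 part (edgeR adjusted p = 0.0900) and at 0.71 in the Il10 part (0.344). Ctla4 was at 0.80 and 0.51 (0.113 and 0.536), and Tigit at 0.68 and 0.63 (0.199 and 0.538). Icos was at 0.12 in the Klf2 part (0.918) and 0.67 in the Il10 part (0.433). The share of the genotype difference that follows the mix of the parts was not tested.

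**Figure D2:**
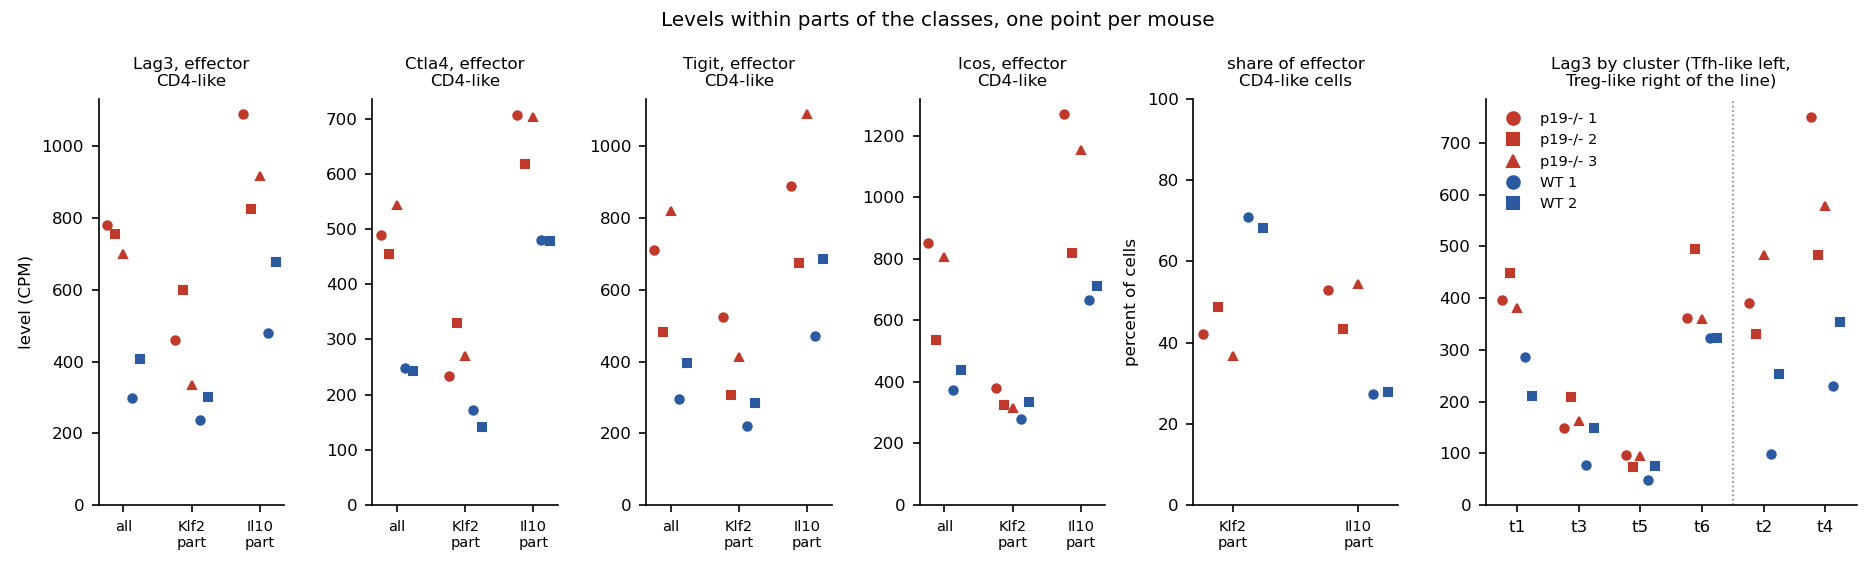
Levels in CPM (vertical axes from 0) of Lag3, Ctla4, Tigit and Icos in all effector CD4-like cells and in their 2 parts, the percent of the class in each part, and Lag3 by Tfh-like and Treg-like cluster. Each point is a mouse (red p19-/-, blue WT): the Il10 part is above the Klf2 part for each gene, and it holds 43.2% to 54.4% of the class in p19-/- mice against 27.4% and 27.9% in WT mice.

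In all T cells pooled, Lag3 was 409, 379.8 and 379 CPM in p19-/- and 176 and 234 CPM in WT mice (log2 fold change 0.94 ± 0.12, edgeR adjusted p = 0.00820), 1 of 10 members against 0.326% of 10430 genes higher. Without p19-/- 1 the adjusted p was 0.0617 and without WT 1 it was 0.147. Ctla4 was 321, 344 and 335 CPM against 248 and 246 CPM, at 0.45 ± 0.09 (edgeR adjusted p = 0.0693), and DESeq2 called it (0.00329). In pooled cells a change in the mix of classes cannot be told apart from one in RNA per cell. CD8 T-like cells had enough counts for 1 member, Tnfrsf18, at 0.31 ± 0.58 (edgeR adjusted p = 0.999): 0 of 1 was called by either tool and 0 had an unadjusted p under 0.05, where 0.193% of 2069 genes were called. Naive-like cells, 7 to 61 per mouse, were not tested.

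**Figure D3:**
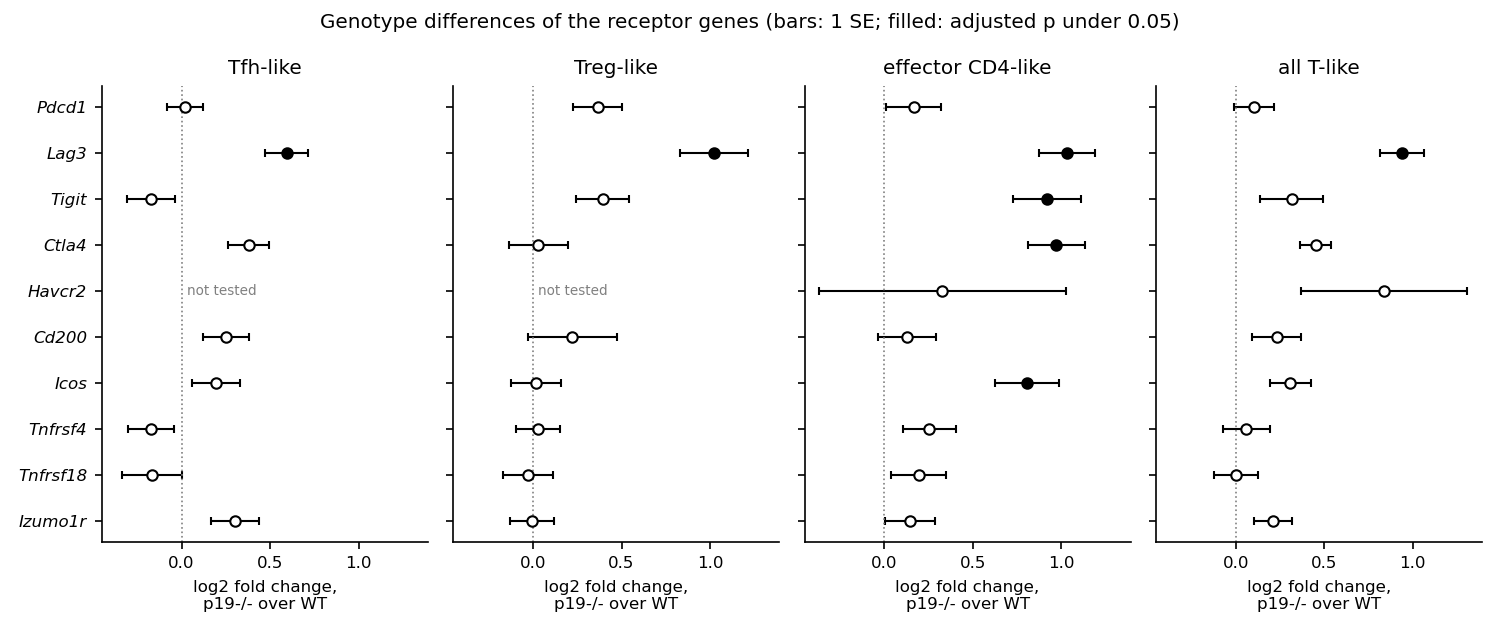
Log2 fold change of each receptor gene, p19-/- over WT (horizontal axis), in 3 classes and in all T cells, with bars of 1 SE and filled points where the edgeR adjusted p was under 0.05. Lag3 is filled in the 4 panels, from 0.59 in Tfh-like to 1.03 in effector CD4-like cells, and Ctla4, Tigit and Icos only in effector CD4-like cells.

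No gene around the members passed in these 3 classes. Of the related lists (other inhibitory and costimulatory receptors, ligands, signalling and transcription genes, activation genes), 0 of 66 genes passed edgeR's test in Tfh-like cells and 0 of 67 in Treg-like cells, with 13 and 11 at an unadjusted p under 0.05. In effector CD4-like cells 0 of 56 passed, with 14 under 0.05. The share of all genes under that unadjusted limit is not given, so these counts are not read as an excess. DESeq2 called 0 in the 3 classes, leaving 22 genes of the effector CD4-like fit without an adjusted p. Over all genes, 0.909%, 0.66% and 0.781% passed in these classes in either direction. Among other inhibitory receptors the lowest p in Tfh-like cells were those of Cd200r1 (−1.13), Btla (0.27) and Pecam1 (0.31), and in Treg-like cells those of Cd101 (0.45), Btla (0.35) and Klrg1 (−0.40), all as log2 fold changes. For other costimulatory receptors they were Tnfrsf9 (−0.78), Tnfsf14 (0.70) and Cd27 (0.38) in Tfh-like cells, and Slamf1 (−0.78), Cd2 (0.18) and Cd27 (0.19) in Treg-like cells.

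Ligand genes nearest to the threshold were Lgals9 (−0.28) and H2-Ab1 (0.52) after Cd200r1 in Tfh-like cells, and H2-Ab1 (0.76), Lgals9 (−0.54) and Lgals3 (0.56) in Treg-like cells. H2-Ab1 belongs to MHC class II, the LAG-3 ligand, and is a B cell gene. Of the signalling genes, Ptpn6, which encodes the phosphatase SHP-1, had the lowest p in both classes (0.33 and 0.62), followed by Nr4a1 (−0.36) and Sla2 (0.42) in Tfh-like and Batf (0.38) and Nr4a2 (0.97) in Treg-like cells. Of the activation genes, Cd69 did so in both (0.49 and 0.66), followed by Rel (−0.39) and Myc (−0.66) in Tfh-like and Cd44 (−0.46) and Il2ra (−0.50) in Treg-like cells. The lowest edgeR adjusted p over these lists was 0.114 in Tfh-like and 0.131 in Treg-like cells.

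In single cells, thinned to 2000 UMIs each so that depth was equal, most CD4 cells carried several members at once. Tfh-like cells had 4.15 ± 0.14 of the 10 members detected per cell, Treg-like cells 5.32 ± 0.32, effector CD4-like cells 4.88 ± 0.64, naive-like cells 1.17 ± 0.54 and CD8 T-like cells 0.222 ± 0.109. At least 5 members were found together in 39.5% of Tfh-like, 72.0% of Treg-like and 54.9% of effector CD4-like cells. GC B-like cells, which should lack most members, had 0.05 ± 0.0134 per cell (median depth 9406 UMIs before thinning, against 3583 in T cells), and 95.7% of them had none. Without thinning they had 0.218 ± 0.0472 per cell, and 83.0% had none. Thinning takes a larger part of the UMIs from these deeper cells, so their thinned value can understate the free RNA that reaches a T cell.

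Pdcd1 was found in 88.0 ± 2.11% of Tfh-like cells, 74.3 ± 7.27% of Treg-like and 58.7 ± 5.77% of effector CD4-like cells, against 0.444 ± 0.167% of GC B-like cells. Lag3 was found in 31.7 ± 6.87%, 44.5 ± 13.6% and 57.3 ± 9.30% of the same T cell classes, against 0.193 ± 0.224% of GC B-like cells. Thinning left out 100 Tfh-like, 122 Treg-like, 37 effector CD4-like and 292 GC B-like cells as too shallow.

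By mouse, Lag3 was found in 35.9%, 41.0% and 29.4% of Tfh-like cells of p19-/- mice and in 23.2% and 29.0% of those of WT mice. In Treg-like cells the shares were 50%, 49.3% and 60.3% against 24.7% and 38.0%, and in effector CD4-like cells 68.8%, 62.3% and 58.5% against 44.4% and 52.5%. Each p19-/- mouse was above both WT mice in the 3 classes, with a two-sided exact permutation p of 0.2, the smallest that 10 splits of 3 against 2 mice can give. Effector CD4-like cells carried 5.48, 4.94 and 5.50 members per cell in p19-/- mice and 4.08 and 4.38 in WT mice, with the same exact permutation p of 0.2.

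How often pairs of members occurred together in single cells was set against their separate shares. The measure was the number of cells with both UMIs over the number expected from the product of the shares in each mouse, and it was 1.00 for Cd3e with Cd3g as a reference in Tfh-like cells. Of 36 pairs in Tfh-like cells with at least 10 expected cells, the median ratio was 1.03, the range 0.899 to 1.24, and 10 pairs were above 1 in all 5 mice. Treg-like cells gave a median of 1.01 over 36 pairs (0.885 to 1.12), with 6 pairs above 1 in all 5 mice. Effector CD4-like cells gave 1.06 over 39 pairs (0.673 to 1.43), with 10 pairs above 1 in all 5 mice. The 39 include pairs with Havcr2, which was rare, and the ratio of 1.43 belongs to 1 of these. The 95% intervals below cover counting error only.

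The pair of Ctla4 and Tnfrsf4 had the highest ratio in Tfh-like cells, 255 cells against 206 expected (1.24, exact Poisson interval 1.09 to 1.40). Lag3 with Cd200 came to 1.21 (1.05 to 1.40) and Lag3 with Ctla4 to 1.21 (1.04 to 1.39), each above 1 in 5 of 5 mice. Pdcd1, present in most Tfh-like cells, had ratios 0.966 with Cd200 to 1.03 with Ctla4 with the 8 partners detected there. Tigit with Cd200 was lowest at 0.899 (0.777 to 1.03).

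In effector CD4-like cells the neighbouring genes Tnfrsf4 and Tnfrsf18 were found together in 159 cells against 131 expected (1.21, 1.03 to 1.42), and Pdcd1 with Tigit in 181 against 154 (1.18, 1.01 to 1.36), both above 1 in 5 of 5 mice. Lag3 and Ctla4, which rose together, came to 1.11 (0.935 to 1.31). Ctla4 with Icos, the other pair of neighbours, had 1.17 there (0.989 to 1.38) and 1.12 in Treg-like cells (0.976 to 1.27), the highest ratio of that class. These classes hold clusters with different levels, and the part of that mix in a ratio was not tested.

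**Figure D4:**
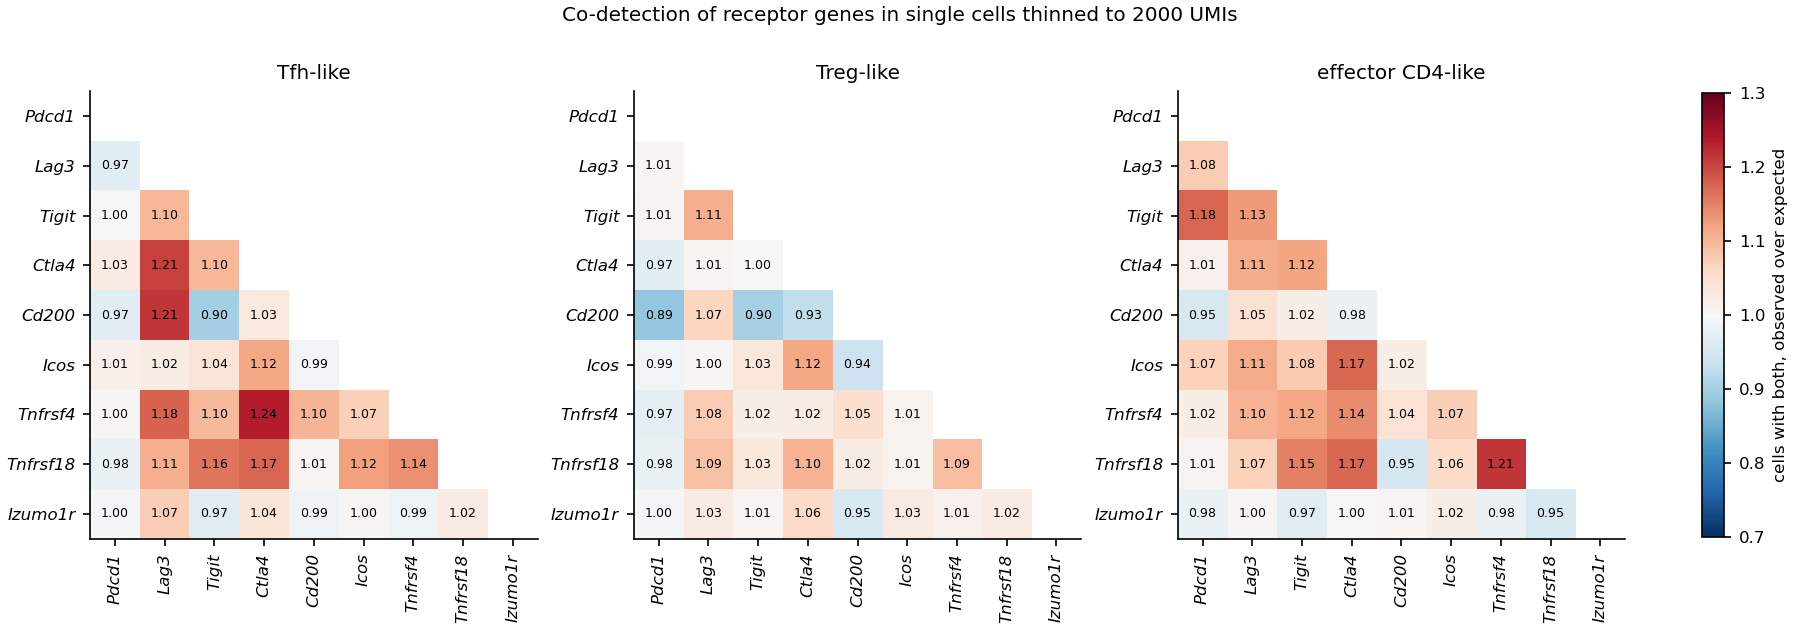
Cells with UMIs of both genes over the number expected from the separate shares (color and printed ratio), for pairs of 9 members in 3 classes, cells thinned to 2000 UMIs. Most squares lie between 0.9 and 1.2, and Ctla4 with Tnfrsf4 in Tfh-like cells is the highest, at 1.24.

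B cells gave a check on free RNA, since RNA released by T cells keeps its genes in 1 ratio wherever it lands. Member UMIs in B cells were set against the number expected from the UMIs of 10 T cell marker genes there, using the ratio found in the T cells of the same mouse. GC B-like cells held 542 such marker UMIs in 37180064. Tigit (1.34, 95% exact Poisson interval 0.976 to 1.79), Tnfrsf18 (1.44, 0.951 to 2.10), Tnfrsf4 (1.22, 0.892 to 1.64), Izumo1r (0.999, 0.750 to 1.303) and Icos (0.907, 0.581 to 1.35) had intervals that included 1, the level T cell RNA would give. The intervals treat UMIs as independent, but Izumo1r was clumped. In p19-/- 2 its 14 UMIs lay in 3 cells, with up to 12 in a cell. In p19-/- 1 its 11 UMIs lay in 5 cells, with up to 6. Whether these were remaining doublets was not tested.

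Cd200 did not: GC B-like cells held 29, 52 and 131 Cd200 UMIs for p19-/- and 121 and 76 for WT, 33.8 times the number expected (30.6 to 37.3, above in 5 of 5 mice) and 12.9 times with doublets kept. In B cells of the mature non-GC B-like class Cd200 was 44.7 times the expectation (37.6 to 52.8). These cells also held Tnfrsf18 at 7, 2 and 15 UMIs against 18 and 11, or 11.2 times the expectation (8.37 to 14.6, above in 5 of 5 mice), where GC B-like cells had 1.44. The Cd200 level of GC B-like cells was 10.8 ± 2.08 CPM, against 278 ± 37.2 CPM in Tfh-like cells.

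The inhibitory receptors Ctla4, Lag3 and Pdcd1 were above the expectation in GC B-like cells by smaller numbers: Ctla4 3.07 times (2.34 to 3.97), Lag3 2.40 times (1.77 to 3.18) and Pdcd1 1.52 times (1.23 to 1.86). Single mice weighed on the first 2, with 38 of 59 Ctla4 UMIs in p19-/- 3 and 20 of 48 Lag3 UMIs in p19-/- 1. Those 38 Ctla4 UMIs lay in 25 cells, with up to 7 in a cell, and the 20 Lag3 UMIs in 8 cells, with up to 9. Whether such cells were remaining doublets was not tested. With doublets kept the ratios of Ctla4, Lag3 and Pdcd1 were 1.97, 1.32 and 1.19. In the GC B-like genotype test 0 of 7 members passed edgeR or DESeq2, where 0.0189% of 10570 genes passed edgeR. An unadjusted p under 0.05 was found for 3 members, with the share of all genes under that limit not given. The largest was Lag3, at 2.42 ± 0.89 (edgeR adjusted p = 0.544), and T cell markers in these cells summed to 28.0, 19.7 and 13.8 CPM in p19-/- mice and 12.9 and 9.52 CPM in WT mice.

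**Figure D5:**
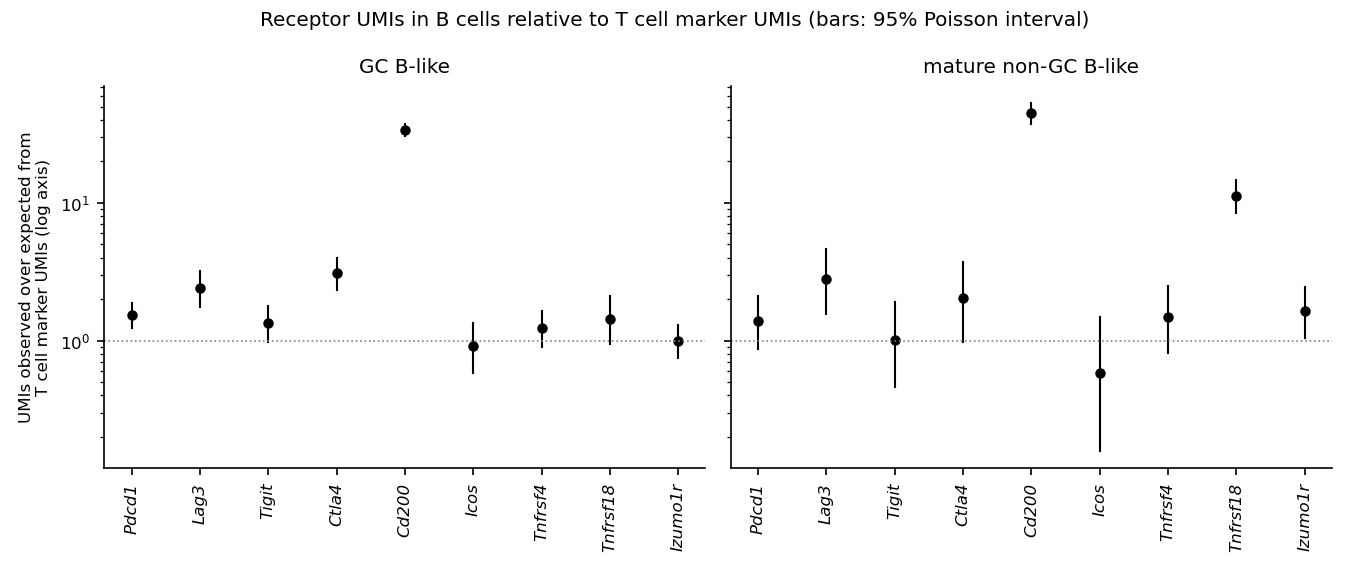
UMIs of 9 members in 2 B cell classes (GC B-like, and mature B-like outside the GC) over the number expected from T cell marker UMIs (log axis), all mice together, with 95% Poisson intervals and a dotted line at 1. Cd200 lies far above the line in both classes (33.8 and 44.7), and Tnfrsf18 lies at 11.2 in the mature class and 1.44 in GC B-like cells.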

How the data were processed

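Per the labels' protocols, single cells of spleen were captured with 10x 5' VDJ kits, and RNA and BCR libraries were made for each mouse. The authors deposited UMI counts per gene and barcode, made with Cell Ranger 3.0.2 and STAR on mm10 per the submitters' processing notes, and BCR contig lists per barcode with deposited UMI and read counts, of which only the barcode was used. The members and gene lists were chosen with earlier results of these data known.

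Barcodes with at least 200 genes and at most 10% mitochondrial UMIs were kept. Scrublet's automatic threshold marked 28 of 9356, so the expected number by score (0.8% per 1000 barcodes) was removed, 156 in all. Cells were scaled to 10000 UMIs, and 2000 variable genes, 20 components and 20 neighbours were clustered at Leiden resolution 1 (Python 3.11.15, scanpy 1.11.5, leidenalg 0.10.2), and T cells were clustered again without the members. Classes were named from markers, so names are rebuilt. UMIs were summed per mouse and class and tested with edgeR 4.0.16 (quasi-likelihood, TMM, filterByExpr, R 4.3.3), tested on simulated data, with DESeq2 1.42.0 as an alternative; a class needed 10 cells in every mouse. Other alternatives were RLE factors, no filter, sex, the replicate number as a block, each mouse left out, doublets kept, cells with a BCR contig left out, a 5% mitochondrial limit, members kept in clustering, resolutions 0.6 and 1.6, marker gates and other thinning depths. The parts within classes and the effector CD4-like alternatives of cell filters were added after the data were seen. All 10 members were named, and from each related list the 3 genes with the lowest p in Tfh-like and Treg-like cells. For each member the 3 most correlated genes were ranked, of which the top gene and a selection of the others were named.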

Additional observations from a re-analysis of the deposited data

How the results depend on the processing

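Lag3 kept its direction under every alternative run in Tfh-like, Treg-like, effector CD4-like and all T cells, and its call in 12, 13, 15 and 14 of 16. Members called, 1 in Tfh-like cells, came to 3 with the replicate number as a block (Lag3, Ctla4 and Izumo1r), 0 with doublets kept and 0 without cells that had a BCR contig. The block called 0 in Treg-like cells and 3 in all T cells. Replicate 3 exists only in p19-/-, so under the block that mouse adds nothing to the genotype term. The block also leaves little of the 5 mice to estimate the spread from. Same-numbered mice correlated at −0.004 to 0.093 once the mean of each genotype was removed. With 2 WT mice, whose deviations then mirror each other, this cannot decide whether the numbers pair the mice. In all T cells DESeq2 and the unfiltered fit called 2 each. Effector CD4-like cells had 2 with sex as a covariate, 2 at resolution 0.6 and 0 at 1.6. As p19-/- 3 is the only male, the sex covariate in effect leaves that mouse out of the genotype term. Unfiltered, GC B-like cells and the interaction had 1 each. Leaving out 1 mouse gave 0 to 1 called members in Tfh-like, Treg-like and all T cells and 2 to 4 in effector CD4-like cells.

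Of all genes, 80 passed in Tfh-like, 49 in Treg-like, 58 in all T, 43 in effector CD4-like, 4 in CD8 T-like and 2 in GC B-like cells and 16 in the interaction. DESeq2 called 45 in Tfh-like, 25 in Treg-like, 21 in effector CD4-like and 52 in GC B-like cells. Without the filter they were 227, 147, 350, 98, 19 and 203 in the 6 fits, and 72 in the interaction. The replicate block gave 240 in Tfh-like, 582 in all T, 77 in effector CD4-like, 0 in CD8 T-like and 13 in GC B-like cells. Sex as a covariate gave 8 in GC B-like cells, and resolution 1.6 gave 5 in effector CD4-like cells. With 1 mouse left out the counts were 35 to 101, 24 to 76, 10 to 74, 16 to 61, 1 to 15 and 0 to 9. The cause was not tested.

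Tigit in Tfh-like cells turned to 0.28 within cluster t5 and 0.23 within t6. With marker gates the Treg-like over Tfh-like ratio was 2.05 for Tigit and 2.82 for Tnfrsf4. Members per cell at 1000 UMIs, 3000 UMIs and without thinning were 2.81, 4.97 and 5.52 in Tfh-like, 3.8, 6.01 and 6.42 in Treg-like, and 3.27, 5.75 and 6.09 in effector CD4-like cells. Pairs above 1 in all 5 mice numbered 4 at 1000 UMIs and 20 without thinning in Tfh-like cells, 14 without thinning in Treg-like cells, and 5 at 3000 UMIs and 25 without thinning in effector CD4-like cells. With doublets kept, observed over expected UMIs in GC B-like cells were 1.19 for Pdcd1, 1.32 for Lag3, 1.97 for Ctla4, 12.9 for Cd200 and 0.884 for Tnfrsf4. Cd200 came to 37.6 against Cd3e, Cd3d, Cd3g, Trac and Trbc2 alone. Naive-like T cells were not fitted: 1 mouse had 7, and neither leaving it out nor the settings that gave each mouse at least 10 (doublets kept, the 5% mitochondrial limit, members kept) were run. The interaction, which holds the mouse as a block, got no further replicate block.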
